A study of Mus musculus with 18 samples.

Results

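The interferon-stimulated genes described here were 9 genes named by symbol, Isg15, Ifit1, Ifit3, Ifi44, Irf7, Oasl2, Rsad2, Usp18 and Bst2, of the 54347 genes counted in mouse adipose tissue. Each symbol matched 1 gene, and all 9 were among the 18728 genes that passed the filter on low counts. The rule took them by symbol alone.

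Polyadenylated RNA was sequenced from 3 fat depots, the interscapular brown depot (iBAT) and the white depots of the inguinal region (iWAT) and the epididymis (eWAT), of 6 mice aged 12 weeks. The ko group was 3 mice of the ΔGm15551 line, which carry a germline deletion, made with CRISPR/Cas9, of exon 1 of the long noncoding RNA gene Gm15551, and the wt group was 3 wild type mice that the labels place in the same line. All 6 mice had the C57BL/6N background and ate chow, and every group of tissue and genotype held 3 libraries, 1 from each mouse. The study asked what the loss of Gm15551 does to adipose tissue, and the design also allows the 3 tissues to be compared within the same animals. All ko mice carried the same deletion, so an effect of that allele and an effect of the gene cannot be told apart.

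Interferons are secreted proteins that cells release on sensing viral nucleic acid. Type I interferons bind the receptor chains Ifnar1 and Ifnar2, the kinases Jak1 and Tyk2 become active, and a complex of transcription factors moves to the nucleus and binds a short DNA sequence, the interferon-stimulated response element (ISRE). The genes that respond encode antiviral proteins and also parts of the pathway itself, among them Irf7, which amplifies interferon production. Adipose tissue holds many macrophages beside its adipocytes, and both kinds of cell respond to interferon.

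The promoter stretches below are shown because they hold the ISRE core, through which interferon acts on these genes. The core, a pair of GAAA runs with any 2 bases between them, was searched on both strands of RefSeq promoter windows of the build GRCm38.p6, which run from 250 bases before to 50 bases after a gene's start. The capitals mark every match, which reads as GAAA runs or, where it lies on the other strand, as TTTC runs, and all stretches run 5′ to 3′ along the gene's own strand.
Isg15, chr4:156200850-156200921, minus strand: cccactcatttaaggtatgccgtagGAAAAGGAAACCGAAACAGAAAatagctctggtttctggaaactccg
Bst2, chr8:71537562-71537627, minus strand: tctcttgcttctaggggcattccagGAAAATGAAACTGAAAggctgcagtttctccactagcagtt
Rsad2, chr12:26456538-26456597, minus strand: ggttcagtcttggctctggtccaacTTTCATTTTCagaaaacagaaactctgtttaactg
Ifit3, chr19:34583348-34583441, plus strand: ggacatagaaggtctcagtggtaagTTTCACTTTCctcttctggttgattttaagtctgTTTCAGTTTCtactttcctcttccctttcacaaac
Ifit1, chr19:34640760-34640838, plus strand: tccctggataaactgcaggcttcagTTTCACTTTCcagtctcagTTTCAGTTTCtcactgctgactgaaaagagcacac

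Isg15 held 3 overlapping matches, Bst2 held 2 overlapping matches, Ifit1 and Ifit3 held 2 separate matches each, and Rsad2 held 1. In all, 5 of the 8 members with a window held the core, beside 3.99% of 27025 genes with a window and 17 of the 36 other interferon-stimulated genes with one. The windows of Ifi44, Irf7 and Oasl2 did not hold these letters, and Usp18 had no window in the table. The second motif searched, TTCNNNGAA, is the core of the gamma-activated sequence through which interferon-gamma acts, and it was found in the Bst2 window only, where it overlapped the ISRE, beside 9.55% of all genes with a window. A match is a run of letters and not a measured binding site.

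The libraries held between 14997901 and 34389586 counts. Levels are given as CPM, counts scaled to a common library size, after correction of the library sizes by the trimmed mean of M-values (TMM). With this scaling 3 counts corresponded to between 0.0728 and 0.235 CPM. No iBAT library had a TMM factor above 0.744, and no library of a white tissue had one below 1.056. The correction therefore raised CPM in iBAT relative to both white tissues, and tissue differences without it were not tested. Gm15551 itself had between 40 and 316 counts in the 9 wt libraries and between 0 and 4 in the 9 ko libraries, with no overlap in any tissue. The labelled tissues carried their markers: the summed CPM of 5 brown adipocyte markers lay between 6225 and 11471 in iBAT and at most 217 in iWAT, and that of 4 markers of epididymal fat and mesothelium lay between 28.8 and 104 in eWAT and at most 2.27 elsewhere. 4 libraries stood apart by genes of other tissues, namely iWAT wt replicate 3 and iWAT ko replicate 2, which were rich in B and T cell markers, iWAT ko replicate 1, with 4231 CPM of skeletal muscle markers, and eWAT ko replicate 3, with 4823 CPM of epididymis markers.

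On GRCm38, Isg15 lies at chr4:156199424-156200818, Ifi44 at chr3:151730922-151749960, Irf7 at chr7:141262706-141266481, Rsad2 at chr12:26442746-26456452 and Bst2 at chr8:71534255-71537456, all on the minus strand. Oasl2 at chr5:114896936-114912234, Usp18 at chr6:121245906-121270917, Ifit3 at chr19:34583531-34588731 and Ifit1 at chr19:34640871-34650009 lie on the plus strand, so that Ifit1 and Ifit3 are neighbours on 1 chromosome.

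Per kilobase of the annotated main transcript, Bst2, which tethers budding virus particles to the cell surface, was the most abundant member in each tissue, with 41.7 ± 11.4 CPM per kb (SD, n = 6) in iBAT, 78.2 ± 24.7 in iWAT and 42.3 ± 6.45 in eWAT. Ifi44, an interferon-induced protein whose function is less well defined, was the least abundant, with 0.990 ± 0.250, 2.93 ± 1.48 and 1.14 ± 0.293 CPM per kb. The order between them was not the same in the 3 tissues. Rsad2 was number 2 in iBAT, with 10.9 ± 2.68 CPM per kb, and number 5 in eWAT and number 7 in iWAT, with 6.24 ± 1.45 and 7.42 ± 2.08 CPM per kb. Its share of the members' summed level per kb was between 12.1% and 20.3% in the iBAT libraries, between 4.46% and 8.54% in eWAT and between 2.79% and 6.67% in iWAT, so that iBAT did not overlap the white tissues. Irf7 went the other way, with 8.67% ± 0.536 (SD, n = 6) of the sum in iBAT, 15.3% ± 2.22 in eWAT and 18.5% ± 3.51 in iWAT.

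**Figure D1:**
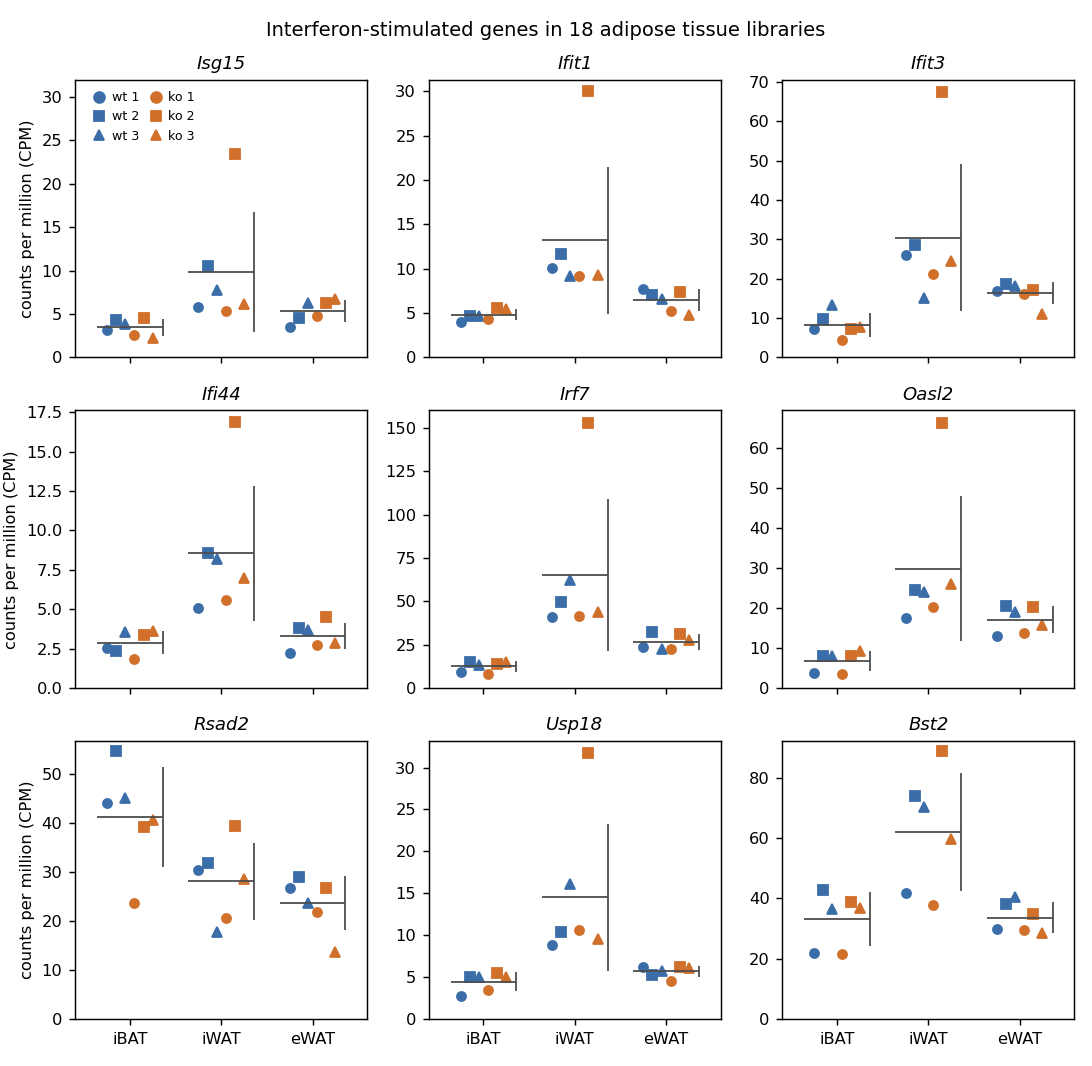
CPM of the 9 genes (linear vertical axes from 0, a panel per gene) in the 6 libraries of each tissue (horizontal axis), with colour for genotype and symbol for replicate number. Horizontal lines are means over 6 libraries and vertical lines 1 SD; iWAT ko replicate 2 is the highest iWAT library in all 9 panels, and only Rsad2 has its highest mean in iBAT.

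Between iBAT and iWAT, every one of the 9 members passed the threshold of an adjusted p under 0.05 (edgeR quasi-likelihood test, Benjamini-Hochberg adjustment over 18728 genes), 8 of them lower in iBAT and Rsad2 higher. The tissues differed widely, and 54.3% of all genes tested passed in this comparison, 30.3% lower and 24% higher in iBAT. The median log2 fold change of the members was -1.55, beside -0.145 over all genes. An unadjusted p under 0.05 held for 59.4% of all genes. In 7 members each iBAT library lay below each iWAT library, which held for 16.9% of all genes, and 34.6% did not overlap in either direction. All 9 calls also held among the wt libraries alone, without iWAT ko replicate 2, and without both iWAT libraries rich in lymphocyte markers. In these bulk tissues, fewer cells of a type and less RNA per cell cannot be told apart.

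Irf7, the transcription factor that drives interferon genes in response to viral nucleic acid, had the largest log2 fold change of the members between iBAT and iWAT. Its lowest, median and highest levels were 8.14, 13.8 and 15.3 CPM in iBAT. In iWAT the values were 40.8, 46.7 and 153 CPM and the eWAT values 22.4, 25.8 and 32.3 CPM, so that the 3 tissues did not overlap. Irf7 was 5.07-fold lower in iBAT than in iWAT (log2 fold change -2.34 ± 0.30 (SE), edgeR adjusted p = 6.83e-06) and 2.11-fold lower than in eWAT (-1.07 ± 0.29, edgeR adjusted p = 0.00518). The iWAT to eWAT difference was 1.27 ± 0.29 (edgeR adjusted p = 0.0116), and 0.83 ± 0.18 (edgeR adjusted p = 0.0112) without iWAT ko replicate 2. A stretch of 45 bases of Irf7 exons lies under exons of Phrf1 on the opposite strand, and whether counting used the strand is not given in the sources used here.

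Isg15 is a ubiquitin-like protein that is attached to other proteins during the interferon response, and Usp18 is the protease that removes it and also dampens signalling at the receptor. Isg15 had lowest, median and highest levels of 2.25, 3.52 and 4.51 CPM in iBAT. Those of iWAT were 5.30, 6.96 and 23.4 CPM and the eWAT values 3.52, 5.52 and 6.73 CPM. Usp18 had 2.72, 5.03 and 5.49 CPM in iBAT. The iWAT values were 8.87, 10.5 and 31.7 CPM and the eWAT values 4.51, 5.91 and 6.24 CPM. For both genes iBAT lay wholly below iWAT and overlapped eWAT, while iWAT lay wholly above eWAT for Usp18 only. Isg15 was lower in iBAT than in iWAT by a log2 fold change of -1.48 ± 0.34 (SE), and Usp18 by -1.69 ± 0.29 (edgeR adjusted p = 0.00159 and 0.000118). Usp18 was 2.52-fold higher in iWAT than in eWAT (1.33 ± 0.28, edgeR adjusted p = 0.00721), and the same difference of Isg15 missed the threshold (0.87 ± 0.33, 95% interval 0.17 to 1.57, edgeR adjusted p = 0.108). Between iBAT and eWAT, Isg15 missed the threshold (-0.61 ± 0.34, edgeR adjusted p = 0.136), and it passed with the mouse as a block (-0.66, edgeR adjusted p = 0.0444) and without iWAT ko replicate 2 (-0.64, edgeR adjusted p = 0.0298). Exons of Usp18 overlap 124 bases of the opposite-strand gene Gm44148.

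Ifit1 and Ifit3 belong to a family of proteins that bind foreign RNA, and Oasl2 belongs to the oligoadenylate synthetase family, whose members respond to double-stranded RNA. Ifit1 had 4.02, 4.69 and 5.56 CPM in iBAT. In iWAT the values were 9.13, 9.67 and 30.03 CPM and the eWAT values 4.80, 6.85 and 7.74 CPM. Ifit3 had 4.38, 7.54 and 13.4 CPM in iBAT. Those of iWAT were 15.0, 25.2 and 67.4 CPM and the eWAT values 10.9, 16.98 and 18.6 CPM. Oasl2 had 3.60, 7.97 and 9.40 CPM in iBAT. The iWAT values were 17.5, 24.3 and 66.2 CPM and the eWAT values 13.0, 17.5 and 20.6 CPM. All iBAT libraries lay below all iWAT libraries in these 3 genes, and only in Oasl2 did they also lie below all eWAT libraries. The log2 fold changes of iBAT against iWAT were -1.45 ± 0.27 (SE) for Ifit1, -1.88 ± 0.33 for Ifit3 and -2.10 ± 0.32 for Oasl2 (edgeR adjusted p = 0.000301, 0.000137 and 3.89e-05). Against eWAT, Ifit3 and Oasl2 passed the threshold (-0.97 ± 0.32 and -1.34 ± 0.31, edgeR adjusted p = 0.0156 and 0.00172), and Ifit1 did not (-0.45 ± 0.27, 95% interval -1.02 to 0.12, edgeR adjusted p = 0.172). Ifit1 passed between iBAT and eWAT without iWAT ko replicate 2 (-0.43 ± 0.15, edgeR adjusted p = 0.0244), and Ifit3 lost its call there without mouse wt 1, wt 2 or ko 1 (edgeR adjusted p between 0.0510 and 0.0567).

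Ifit3 shares 61.8% of its 31-base words with the neighbouring copy Ifit3b, so reads could be divided between the pair. The values of the pair are therefore not separate measurements. Ifit3b had log2 fold changes of -1.76 ± 0.27 (SE) for iBAT against iWAT and -0.91 ± 0.27 against eWAT (edgeR adjusted p = 4.8e-05 and 0.00885). Ifit1 shares 10.5% of its words with other genes, most of them with Ifit1bl2, which had a mean of 0.224 CPM in iBAT, 0.684 in iWAT and 0.446 in eWAT. Isg15 shared 12.8% of its words with other sequences, and each of the other members at most 0.560%.

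Rsad2 encodes viperin, an enzyme that makes a nucleotide analogue which stops viral RNA synthesis. Its lowest, median and highest levels were 23.7, 42.3 and 54.6 CPM in iBAT. In iWAT the values were 17.7, 29.5 and 39.3 CPM and the eWAT values 13.6, 25.2 and 29.0 CPM. The tissues overlapped, since iBAT ko replicate 1, at 23.7 CPM, lay inside the range of both white tissues and iBAT ko replicate 2, at 39.1 CPM, lay just inside that of iWAT, and the other 4 iBAT libraries lay above all white tissue libraries. Rsad2 was 1.44-fold higher in iBAT than in iWAT (log2 fold change 0.53 ± 0.21 (SE), edgeR adjusted p = 0.0421) and 1.74-fold higher than in eWAT (0.80 ± 0.21, edgeR adjusted p = 0.00414). The first of these calls was close to the threshold. It was lost in 6 alternatives, which were both other filters on low counts and leaving out mouse wt 1, wt 2, wt 3 or ko 3, with edgeR adjusted p between 0.0515 and 0.144. The difference from eWAT was called in all 18 settings, and a setting without correction of the library sizes was not among them. Of all counts before that correction, mouse wt 1 had 713 of 24828001 for Rsad2 in iBAT and 937 of 26976473 in iWAT, a larger share in iWAT. Mouse wt 2 had 843 of 22729147 and 920 of 27410053, a larger share in iBAT. The direction of Rsad2 before the correction thus differed between mice, and it was not tested. Cmpk2, the neighbour of Rsad2 in the genome, had 19.8 ± 3.11 CPM (SD, n = 6) in iBAT, 23.2 ± 7.92 in iWAT and 14.2 ± 4.19 in eWAT. Cmpk2 passed no tissue comparison.

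Bst2 had 21.6, 36.5 and 42.8 CPM in iBAT. Those of iWAT were 37.9, 64.9 and 88.7 CPM and the eWAT values 28.4, 32.2 and 40.6 CPM, and Ifi44 had 1.88, 2.96 and 3.61 CPM, 5.07, 7.59 and 16.9 CPM and 2.20, 3.29 and 4.54 CPM in the same order. For Bst2 the iWAT range overlapped both others, and for Ifi44 iWAT lay wholly above both. Both were lower in iBAT than in iWAT (-0.91 ± 0.22 (SE) for Bst2 and -1.55 ± 0.29 for Ifi44, edgeR adjusted p = 0.00198 and 0.000241) and higher in iWAT than in eWAT (0.89 ± 0.22 and 1.35 ± 0.28, edgeR adjusted p = 0.0159 and 0.00647). Between iBAT and eWAT neither passed, with 95% intervals of -0.47 to 0.44 for Bst2 and -0.79 to 0.40 for Ifi44. The iWAT to eWAT call of Bst2 was lost without both lymphocyte-rich iWAT libraries (0.67 ± 0.22, edgeR adjusted p = 0.0708).

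**Figure D2:**
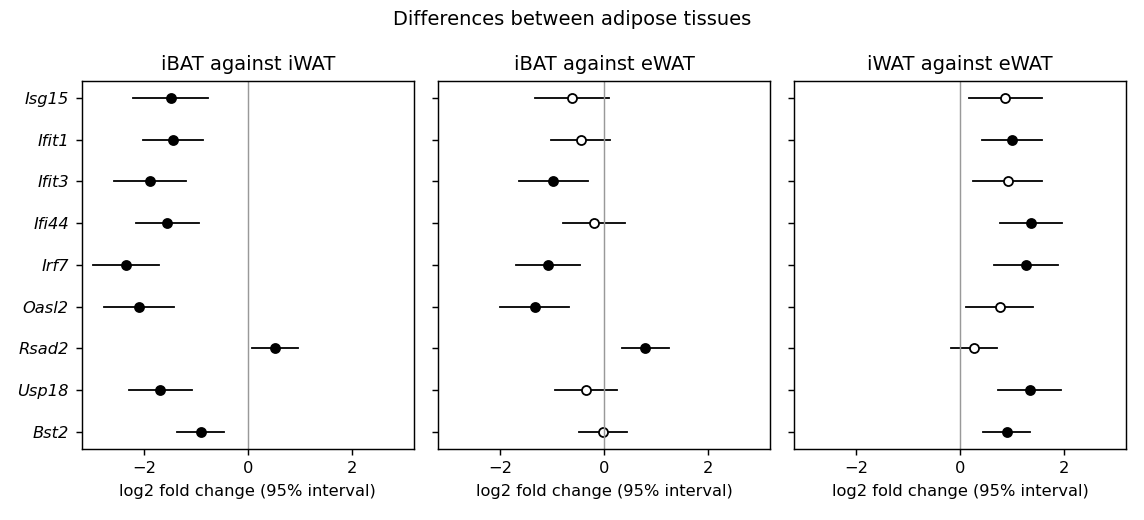
Log2 fold changes (horizontal axes) of the 9 genes (vertical axis) between the tissues named above each panel, with 95% intervals from the edgeR fit of 18 libraries. Filled points passed the threshold; in the left panel all 9 are filled, 8 left of 0 and Rsad2 right of 0.

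Across the set, 4 of the 9 members passed between iBAT and eWAT, where 54.6% of all genes did, and 3 of these were lower in iBAT, as were 30.2% of all genes. Irf7 and Oasl2 did not overlap between these tissues and were wholly lower in iBAT, beside 37.3% of all genes in either direction and 18.6% wholly lower in iBAT. Between iWAT and eWAT all 9 log2 fold changes were positive with a median of 0.91 (0.60 without iWAT ko replicate 2, and also without the 4 libraries that stood apart), beside 0.01 over all genes, and 5 of 9 passed, all higher in iWAT, where 10.2% of all genes passed, 5.7% higher and 4.5% lower. In 4 of these 5 (Ifit1, Ifi44, Irf7 and Usp18) each iWAT library lay above each eWAT library, which held, in either direction, for 4.62% of all genes, and 2.33% were wholly lower in iWAT. The count was 3 without mouse wt 2, wt 3 or ko 3. Of 18 settings, Ifi44 and Usp18 were called in 17, Irf7 in 16, and Ifit1 and Bst2 in 12. Among the wt libraries alone no member passed between iWAT and eWAT, where 247 genes passed in all. The comparisons share libraries, so their counts are not independent of each other.

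The median sums of all 6 immune cell marker lists were lower in iBAT than in the white tissues, opposite to Rsad2, and their order between iWAT and eWAT depended on the list. The summed CPM of 8 macrophage and monocyte markers lay between 65.7 and 162 in iBAT, 280 and 1545 in iWAT and 164 and 581 in eWAT, and that of 5 endothelial markers between 849 and 1028, 528 and 809, and 465 and 999. The 4 iWAT libraries without excess lymphocyte markers had macrophage sums between 280 and 653 with a median of 330, and the eWAT median was 499. The sum of 6 plasmacytoid dendritic cell markers did not overlap between the tissues and had the order of Irf7, at 0.902 to 2.20 CPM in iBAT, 2.82 to 4.80 in eWAT and 5.001 to 146 in iWAT, or 5.001 to 7.15 in those 4 libraries. Of these markers, Cd300c and Klk1 had at most 3 counts in any iBAT library. The medians of the B and T cell lists had this order too, at 3.98, 5.95 and 10.7 CPM and 4.79, 10.4 and 26.1 CPM in iBAT, eWAT and iWAT. The macrophage medians also had it over all libraries, and the neutrophil medians did not. The medians of 4 NK cell markers were 1.29, 4.43 and 13.4 CPM in iBAT, eWAT and iWAT, and 8.70 in the 4 iWAT libraries. The part of these cells in the differences was not tested.

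**Figure D3:**
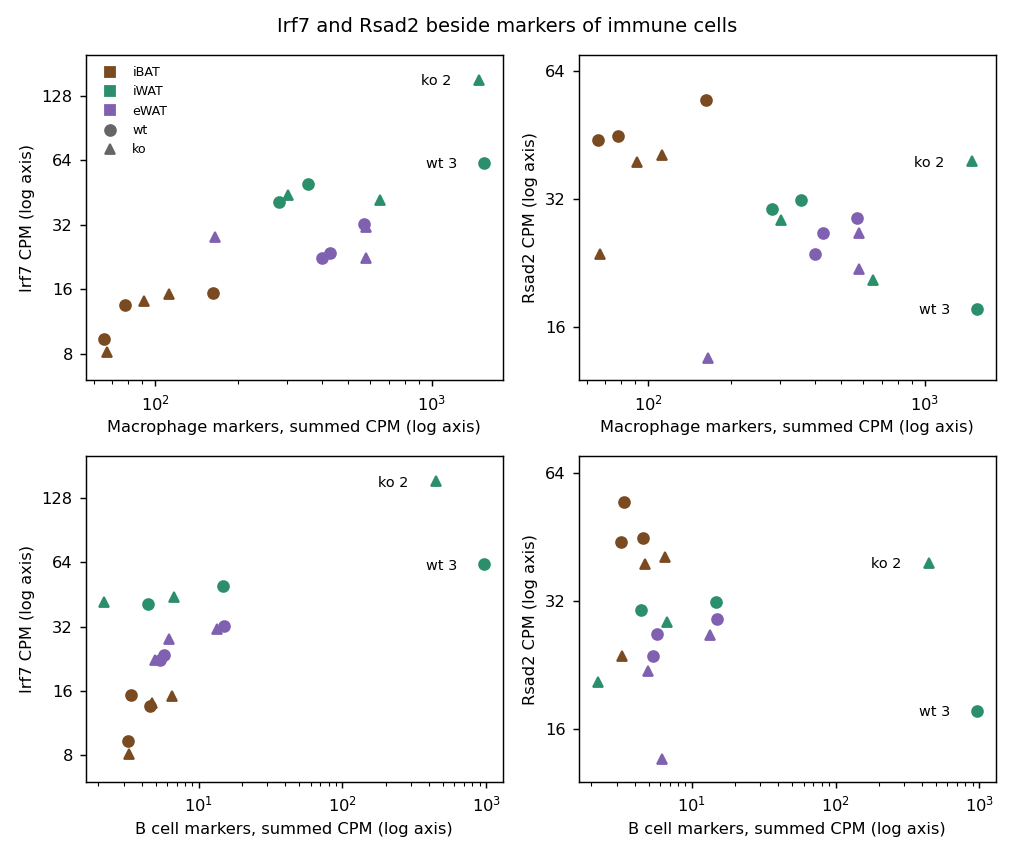
Irf7 (left) and Rsad2 (right) CPM in each of the 18 libraries against the summed CPM of macrophage markers (top) and B cell markers (bottom), on log axes, with colour for tissue and symbol for genotype. The 2 labelled iWAT libraries have the highest marker sums; Irf7 is 153 CPM in ko replicate 2 and 62.5 in wt replicate 3, while the iBAT libraries are at the low end for Irf7 and mostly at the high end for Rsad2.

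The rest of the pathway was followed with 135 further genes in 8 lists, of which 113 were tested. Interferon transcripts themselves were scarcely counted: 15 of 21 interferon genes had no count in any library, the others except Ifng had at most 4 counts in a library, and none passed the filter. Ifng had at most 19 counts, and its mean was 0.0215 CPM in iBAT, 0.304 in iWAT and 0.164 in eWAT. A count of 0 limits these transcripts only to below the 3-count level given above.

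Of the 6 receptor genes, Ifnar2, a chain of the type I receptor, was higher in iBAT than in iWAT and eWAT (log2 fold changes 0.65 ± 0.09 and 1.15 ± 0.09 (SE), edgeR adjusted p = 1.84e-05 and 2.39e-08), with means of 132, 84.5 and 59.6 CPM. The interferon-gamma receptor chains Ifngr1 and Ifngr2 were lower in iBAT than in iWAT (-0.52 ± 0.14 and -0.91 ± 0.16, edgeR adjusted p = 0.0065 and 0.000147). Of 11 signalling genes, 10 were lower in iBAT than in iWAT and none was higher, beside 30.3% and 24% of all genes. Irf5, Irf8 and Irf1 had the smallest p. Irf8, a factor of macrophages and dendritic cells, had means of 4.85 CPM in iBAT, 56.3 in iWAT and 16.2 in eWAT. The iWAT mean includes both libraries rich in B and T cell markers, and the log2 fold change of iBAT against iWAT was -3.51 ± 0.61 (SE).

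Of 14 sensor genes, 10 were lower and 2 higher in iBAT than in iWAT, beside 30.3% and 24% of all genes. The lower ones included Ikbke (-3.69 ± 0.39 (SE)) and the RNA sensor Ifih1 (-1.41 ± 0.15). The higher ones were the adaptor proteins Mavs and Ticam1, through which RNA sensors and Tlr3 signal (1.29 ± 0.17 and 0.59 ± 0.17, edgeR adjusted p = 6.16e-06 and 0.00784). Mavs, which sits on the outer mitochondrial membrane, had means of 123 CPM in iBAT, 50.1 in iWAT and 41.4 in eWAT. Of 8 negative regulators, 6 were lower in iBAT than in iWAT, led by Samhd1, Socs1 and Pias1, and the phosphatase Ptpn2 was higher (0.50 ± 0.15, edgeR adjusted p = 0.0104). Ticam1 and Ptpn2 are named here because they were exceptions in direction.

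Of 49 other interferon-stimulated genes tested, 44 were lower in iBAT than in iWAT, among them Ifi207 (-2.72 ± 0.29 (SE)) and Ly6e (-1.78 ± 0.20), with a list median of -1.59. The exception was Ifi27, a mitochondrial protein, at 1624 ± 118 CPM (SD, n = 6) in iBAT, 417 ± 148 in iWAT and 288 ± 91.9 in eWAT, which was higher in iBAT than in both (log2 fold changes 1.96 ± 0.26 and 2.50 ± 0.26 (SE), edgeR adjusted p = 8.33e-06 and 5.32e-07). All 3 genes of Isg15 conjugation, Herc6, Ube2l6 and Uba7, were lower in iBAT than in iWAT. Of 22 interferon-gamma genes, 17 were lower, led by Psmb9, Ifi47 and Psmb8, and Cd274, the ligand of the T cell receptor PD-1, was higher (1.13 ± 0.23, edgeR adjusted p = 0.000575). Over all lists, 92 of 113 genes were lower and 6 higher in iBAT than in iWAT, beside 30.3% and 24% of all genes. Without both lymphocyte-rich iWAT libraries the counts were 82 and 6 of 114. Between iBAT and eWAT 49 of 113 were lower and 8 higher in iBAT, beside 30.2% and 24.4% of all genes.

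Between iWAT and eWAT 41 of the 113 genes were higher in iWAT and none was lower, beside 5.7% and 4.5% of all genes, with Oas2, Oas1a and Ms4a4c having the smallest p among the other interferon-stimulated genes, and Gbp6, Psmb9 and Psmb8 among the interferon-gamma genes. Without both lymphocyte-rich iWAT libraries the count was 15 of 114, all higher in iWAT. It was 13 without mouse ko 2, 16 without mouse wt 2 or wt 3, and 18 higher and 1 lower without the 4 libraries that stood apart, and among the wt libraries alone no gene of the lists passed.

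Among the iWAT libraries, 1 stood above the others. iWAT ko replicate 2 was the highest iWAT library for all 9 members, at 1.33 (Rsad2) to 3.36 (Isg15) times the median iWAT library and 1.20 (Bst2) to 2.59 (Ifit1) times the next highest. That library had summed levels of 448 CPM for 8 B cell markers, 172 for 9 T cell markers, 60.6 for 6 plasmacytoid dendritic cell markers and 1485 for macrophage markers. iWAT wt replicate 3 had more of each, at 965, 538, 146 and 1545 CPM, and its place among the iWAT libraries differed between members. It was the second highest for Irf7 and Usp18, at 62.5 and 16.1 CPM, the third highest for Isg15, Ifi44 and Bst2, the fourth for Oasl2, and the lowest for Ifit1, Ifit3 and Rsad2, at 9.13, 15.0 and 17.7 CPM. The part of these cells was not tested. In the other 4 iWAT libraries the B cell sum was between 2.20 and 14.7 CPM.

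**Figure D4:**
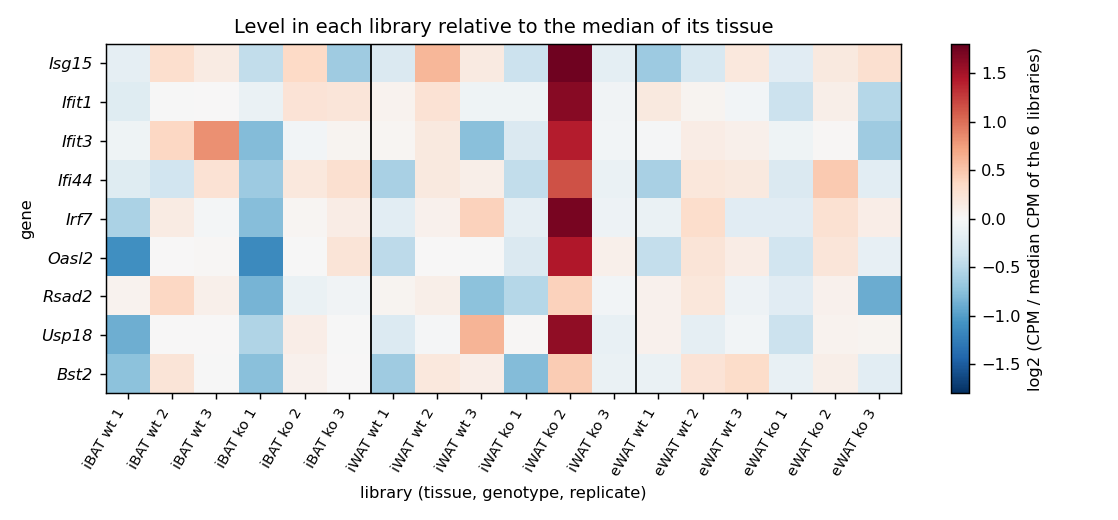
Log2 ratio of each gene's CPM (rows) in each library (columns) to the median of the 6 libraries of that tissue, in red above and blue below, with lines between tissues. The column of iWAT ko replicate 2 is red in all 9 rows, with 1.75 for Isg15, 1.71 for Irf7 and 0.41 for Rsad2, and the columns of mice wt 1 and ko 1 are mostly blue in iBAT.

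Some mice were low in more than 1 tissue. Mouse ko 1 was among the 2 lowest of the 6 mice in 25 of the 27 pairs of member and tissue, and mouse wt 1 was there in 15. In every pair 2 of the 6 mice are there by definition, and the share over all genes was not computed. The members varied together, so the 27 pairs are not independent. The iWAT library of mouse ko 1 was the one with 4231 CPM of skeletal muscle markers. Mice ko 1 and wt 1 both carry replicate number 1, and the labels do not say whether that number marks a litter, a day or a batch. For Oasl2 these 2 mice were the lowest in all 3 tissues, with 3.71 and 3.60 CPM in iBAT beside at least 7.97 in the others, 17.5 and 20.3 beside at least 24.1 in iWAT, and 13.0 and 13.7 beside at least 15.8 in eWAT. For Bst2 they had 21.9 and 21.6 CPM in iBAT beside at least 36.3, and 41.6 and 37.9 in iWAT beside at least 59.6, but in eWAT their 29.8 and 29.3 CPM lay above the 28.4 of mouse ko 3. Both mice together were the lowest pair in 13 of the 27 cases, and for Rsad2 in no tissue. Their macrophage sums were the lowest in iBAT, at 65.7 and 67.1 CPM, and between 280 and 653 in the white tissues, and the part of these cells was not tested. The genes of this description were chosen after their values were seen.

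In a test of differences between the mice across tissues, no member passed the threshold, while 0.155% of all genes did. At an unadjusted p under 0.05 the edgeR test held for 5 members (Isg15, Ifi44, Irf7, Oasl2 and Bst2), beside 13.9% of all genes, and the smallest adjusted p was 0.145 for Bst2. DESeq2 called 3 members (Ifi44, Oasl2 and Bst2) and 1616 genes in all. Over the 27 correlations between 2 tissues across the 6 mice, 24 were positive, 3 had an exact permutation p under 0.05, and none passed after adjustment. Without the 2 mice farthest from the median, 20 were positive, and between iBAT and iWAT 5 of 9 instead of 8, with the median r at 0.141 instead of 0.530. The strongest in rank was Ifi44 in iWAT and eWAT (Pearson's r = 0.916, exact two-sided permutation p = 0.00694, adjusted p = 0.188; Spearman's rho = 1.0, exact permutation p = 0.00278, adjusted p = 0.075; r = 0.922 without the 2 mice farthest from the median).

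The members also varied together from library to library. After the log2 levels were centred within each tissue, the median correlation of a member with the other 8 over the 18 libraries was between 0.46 for Rsad2 and 0.80 for Oasl2. These values include iWAT ko replicate 2, the highest iWAT library for every member, and correlations between members without it were not computed. The closest pair was Irf7 and Usp18 (r = 0.92). Rsad2 was closest to Ifit3 (r = 0.84) and least like Usp18 (r = 0.23). Of 14988 genes with a mean of at least 1 CPM, the 10 most like the members' mean were Rtp4 (r = 0.905), Parp14, Xaf1, Ifitm3, Mov10, Irgm1, Dnmt3a, Phf11d, Tor3a and Gm6548 (r = 0.851), of which 7 stood on the lists above. Without iWAT ko replicate 2, Rtp4 had r = 0.889 and Dnmt3a r = 0.769. The libraries share depth and tissue composition, so these values describe likeness only.

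Between ko and wt, no member passed the threshold across tissues, within any tissue or for the interaction of genotype and tissue, and none had an unadjusted p under 0.05 in the edgeR test. Of all genes, 0.00534% passed across tissues, 0% in iBAT, 0% in iWAT, 0.00534% in eWAT and 0% for the interaction, and 2.19%, 1.27%, 2.22%, 4.35% and 1.41% had an unadjusted p under 0.05. DESeq2 also called no member.

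In iWAT no member was free of overlap between ko and wt, beside 4.92% of all genes, and all 9 log2 fold changes were above 0, with a median of 0.558 and a range from 0.00 for Bst2 to 0.76 for Oasl2. The values show how far a single library carried this. Irf7 was at 40.8, 49.5 and 62.5 CPM in the wt libraries of replicates 1 to 3 and at 41.8, 153 and 44.0 CPM in the ko libraries, and Oasl2 at 17.5, 24.6 and 24.1 CPM and at 20.3, 66.2 and 26.0 CPM. Without iWAT ko replicate 2 the median of the members was -0.208, with 8 of 9 below 0, and without both lymphocyte-rich libraries it was -0.239. The 95% interval for Irf7 ran from -0.23 to 1.51 with all libraries, so it held both no difference and a more than 2-fold higher level in ko.

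In iBAT the log2 fold changes lay between -0.64 for Ifit3 and 0.19 for Ifit1. Rsad2 was at 44.1, 54.6 and 45.0 CPM in the wt libraries and at 23.7, 39.1 and 40.6 CPM in the ko libraries. All ko libraries lay below all wt libraries for this gene alone, which is 1 of 9 members beside 4.94% of all genes with no overlap in either direction, and its log2 fold change of -0.47 ± 0.29 (SE) had an unadjusted p of 0.126 (edgeR). In eWAT the values lay between -0.35 for Rsad2 and 0.31 for Isg15, and every member overlapped between the genotypes, beside 5.25% of all genes that did not. In eWAT, ko replicate 3, which carried the epididymis markers, was the lowest library for Ifit1, Ifit3, Rsad2 and Bst2, the highest for Isg15, at 6.73 CPM, and neither the lowest nor the highest for the other 4 members, and its adipocyte marker sum was 9966 CPM beside 14800 to 22716 in the other eWAT libraries.

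**Figure D5:**
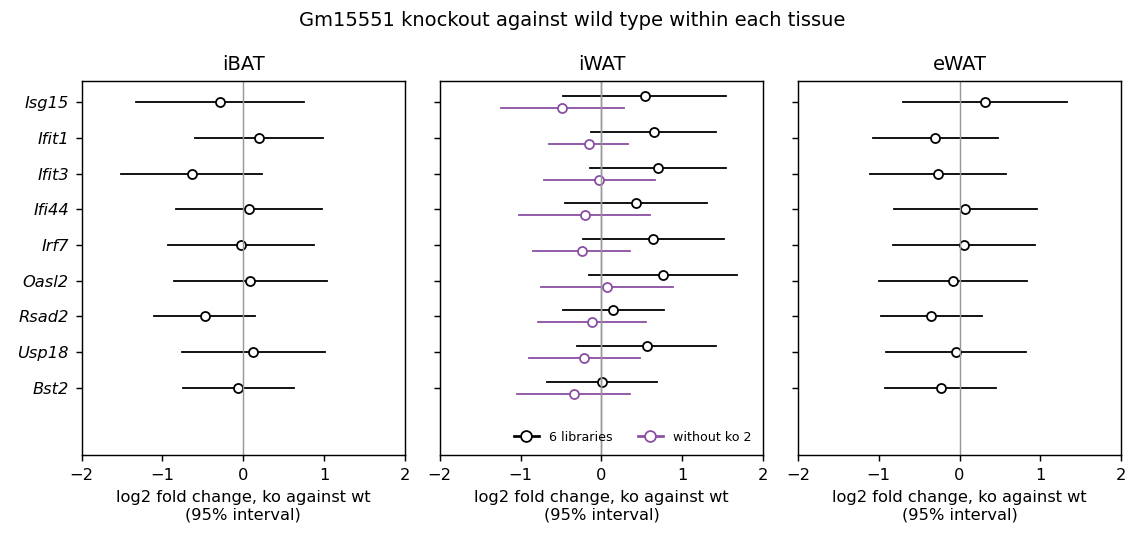
Log2 fold changes of ko against wt (horizontal axes) for the 9 genes in each tissue, with 95% intervals, from 3 libraries of each genotype; open points did not pass the threshold. In iWAT the second set of points is the fit without iWAT ko replicate 2, in which 8 of 9 lie left of 0.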

How the data were processed

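The authors trimmed paired-end reads with cutadapt, quantified them with salmon against GENCODE M22 transcripts, alone or with RNAcentral, and deposited whole-number estimated counts per gene for 18 libraries. Tool versions and the strand setting are not given in the sources used here. From these deposited counts, genes were filtered by group (edgeR's filterByExpr), scaled by TMM and tested with edgeR 4.0.16 (quasi-likelihood F-test, R 4.3.3), with tissue and genotype as terms for tissues and genotype across tissues, 6 groups for genotype within a tissue and the interaction, and tissue and mouse for differences between mice. P-values were adjusted by Benjamini-Hochberg across every gene tested (threshold 0.05). Intervals are at 95%. SEs come from the fold change and F. Alternatives used DESeq2 1.42.0, limma 3.58.1, other filters and left-out libraries. On simulated counts the test of iBAT against iWAT recovered 50% of genes changed by a log2 fold of 1 and 87% at 2, and that of ko against wt in iWAT 21% and 59%. In that simulation 100 genes were changed at each size, every other gene had 1 mean in all tissues, and libraries were drawn independently. In the real data 54.3% of genes passed between iBAT and iWAT, so the simulated shares cannot be carried over to that comparison.

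Groups came from the sample titles. Tissues were paired by mouse from the animal numbers in the labels. Deviations from the group means correlated between -0.165 and 0.326 for libraries of the same mouse (median 0.0573, 7 of 18 pairs over 0.1). For other pairs the range was -0.672 to 0.719 (median -0.0104, 25 of 108 pairs over 0.1). Gene positions, exons and shared 31-base words came from GENCODE M21, and promoter sequences from RefSeq on GRCm38.p6. The members, gene lists, marker lists and motifs were chosen with earlier results of these data known. Named genes were all members, up to 3 genes of each list and comparison with the smallest p, copies of members and the 10 genes most like the members, and exceptions in direction were added after their values were seen. Some genes that this rule would name are not reported here. In the main tissue and genotype fits, p-values measure the spread between libraries treated as independent, although each mouse gave 1 library of each tissue. In the test of differences between mice, they measure the spread within mice across tissues.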

Additional observations from a re-analysis of the deposited data

Results flagged for a closer look

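In 5 of the 27 pairs of member and tissue, the highest or lowest of the 6 libraries lay so far from its neighbour on the log2 scale that the gap, as a ratio to the whole range, exceeded Dixon's 95% critical value for 6 samples. Chance gives about 1 in 20, or 1.35 of 27 pairs, and the members are not independent of each other. In iWAT, ko replicate 2 was the highest library with a ratio of 0.799 for Ifit1, 0.677 for Irf7 and 0.704 for Oasl2. In eWAT, ko replicate 3 was the lowest library with a ratio of 0.733 for Ifit3 and 0.632 for Rsad2. On the CPM scale, an alternative chosen after seeing the data, 8 pairs exceeded it: iWAT ko replicate 2 for Isg15, Ifit1, Ifit3, Ifi44, Irf7, Oasl2 and Usp18, with ratios between 0.685 and 0.881, and eWAT ko replicate 3 for Ifit3 (0.679) but no longer for Rsad2. The first of these libraries held 448 CPM of B cell markers and the second 4823 CPM of epididymis markers, and the part of either in the values was not tested.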

How the results depend on the processing

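In all 18 settings 8 members were called between iBAT and iWAT. Rsad2 was called there in 12, and leaving out 1 mouse gave 8 to 9 members. Between iBAT and eWAT the range without 1 mouse was 3 to 6, and between iWAT and eWAT 3 to 4 (5 without iWAT ko replicate 2 alone), while all ko against wt counts stayed at 0 to 0. Among wt libraries alone 0 members were called between iWAT and eWAT (247 genes in all, beside 1911), with 6595 and 6574 genes for iBAT against iWAT and eWAT beside 10164 and 10220, which rest on fewer samples. DESeq2 called 3 members for differences between mice and 1616 genes beside 29, and the cause was not tested. With the mouse as a block in the 3 tissue comparisons, 9, 5 and 5 members were called, and with the replicate number as a block, which pairs a wt with a ko mouse, 0 between genotypes; Isg15 between iBAT and eWAT was the added call.

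Small values changed sign. Bst2 between iBAT and eWAT became 0.000248 with DESeq2's size factors, 0.000241 with DESeq2, and ranged from -0.097 to 0.045 on leaving out 1 mouse. For ko against wt across tissues, Isg15, Ifit1 and Irf7 became -0.12, -0.11 and -0.0085 without both lymphocyte-rich libraries and -0.12, -0.034 and -0.0057 without the 4 libraries that stood apart. Without iWAT ko replicate 2, an alternative chosen after seeing the data, Isg15, Ifit1, Ifi44, Irf7 and Usp18 became -0.13, -0.09, -0.01, -0.06 and -0.04. Ifit3 became 0.10 with the mouse as a random effect and 0.18 summed per mouse. On leaving out 1 mouse, the range was -0.28 to 0.40 for Isg15, -0.18 to 0.35 for Ifit1, -0.37 to 0.10 for Ifit3, -0.15 to 0.41 for Ifi44, -0.15 to 0.45 for Irf7, -0.068 to 0.51 for Oasl2, -0.12 to 0.41 for Usp18 and -0.30 to 0.074 for Bst2, with the lowest value in each case without mouse ko 2.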
